A study of Mus musculus with 3 samples.

Results

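The 9 genes described here are the muscle regulators Myod1, Myog, Myf5, Myf6, Pax7 and Mef2c and the growth-restraining myostatin pathway genes Mstn, Fst and Acvr2b, followed across 3 groups of mouse muscle. They were chosen by gene symbol as every non-control oligonucleotide of the array that carries one of these names, which gave 10 oligonucleotides for 9 genes out of 27665 genes on the array. Of the 9 genes, 8 were found under their symbol and Mstn only through its accession, since the files list it under the older name Gdf8. Mef2c has 2 oligonucleotides, and Myod1, Myog and Myf5 have 1 each that is printed in 10 spots per array. All mice were 6-week-old males, and total RNA of muscle was taken after 14 days. The Chlorella swimming group ate food with 0.5% powder of Chlorella, a green alga, and swam. The swimming group ate normal food and swam, and the nonswimming group ate normal food and did not swim. The sources used here do not name the strain, the muscle taken or the swimming protocol. RNA of 10 mice per group was pooled and hybridised to 1 single-colour Agilent array per group, so that no spread between mice was measured and no difference has a replicate check or a p-value.

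MyoD (Myod1), Myf5, myogenin (Myog) and MRF4 (Myf6) are basic helix-loop-helix transcription factors that bind E-box sequences with E-protein partners and switch on muscle genes. MyoD and Myf5 mark the myoblast stage, myogenin drives the step into differentiated muscle, and MRF4 is the main member of the family in adult fibres. Pax7 is the transcription factor that defines satellite cells, the stem cells of muscle, and Mef2c works beside the myogenic factors in fibres. Myostatin is a secreted TGF-beta family ligand made by muscle that limits its mass. It signals through the activin type II receptors, among them ActRIIB (Acvr2b), and follistatin (Fst) binds and blocks it.

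The promoter windows of Myog and Mstn are shown because both genes had a higher signal on the Chlorella swimming array and both windows hold matches to the E-box, the motif that the myogenic factors bind. Each is the 250 bases before the gene's start from RefSeq on GRCm38.p6, on the plus strand, at chr1:134289754-134290003 for Myog and chr1:53061390-53061639 for Mstn. Capitals mark matches to the E-box CANNTG, which reads the same on both strands.
Myog: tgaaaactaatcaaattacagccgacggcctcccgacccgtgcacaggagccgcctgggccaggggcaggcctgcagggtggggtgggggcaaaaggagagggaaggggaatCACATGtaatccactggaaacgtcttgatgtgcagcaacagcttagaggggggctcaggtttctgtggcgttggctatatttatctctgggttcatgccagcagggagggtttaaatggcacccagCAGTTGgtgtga
Mstn: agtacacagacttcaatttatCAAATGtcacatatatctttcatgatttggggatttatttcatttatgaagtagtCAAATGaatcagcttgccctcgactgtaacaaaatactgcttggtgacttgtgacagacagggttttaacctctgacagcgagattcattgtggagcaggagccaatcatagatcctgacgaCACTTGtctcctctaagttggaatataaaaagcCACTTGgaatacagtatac
The Myog window held 2 matches, starting at positions -138 (CACATG) and -12 (CAGTTG) from the gene's start. The Mstn window held 4, starting at -229 and -174 (CAAATG) and at -52 and -19 (CACTTG). E-box matches are common, since 66.2% of 32851 mouse windows of this length hold at least 1, with a median of 1 match. Of the other genes with an entry in the promoter table, Pax7, Acvr2b and Myf5 had no match, and the 3 windows of Mef2c had 2, 0 and 1. Pax7 and Acvr2b, without a match, were also highest on the Chlorella swimming array. None of the windows named here held a match to a strict MEF2 pattern, searched on both strands and found in 2.92% of all windows. This pattern is C or T, then TA, 4 bases of A or T, TA, and A or G. The stretch ctatatttat of the Myog window departs from it in its last base only and was not counted. Having no match thus does not mean that a window lacks a MEF2 site. A match is a description of the letters in the window.

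The muscle label was checked on 13 markers of skeletal muscle fibres, such as Ckm and Acta1, and all 13 were well above background on every array. Their summed signal was 7134 in Chlorella swimming muscle, 5606 in swimming muscle and 6273 in nonswimming muscle, in multiples of the array's own 75th percentile. This multiple is called the scaled signal here and is used for every level. The 75th percentile was a signal of 237.8 for the Chlorella swimming array, 295.0 for swimming and 285.9 for nonswimming. On the same arrays, 23448, 24857 and 23841 of 41169 oligonucleotides were well above background by the scanner software's flag, and none was saturated. The swimming array stood apart in marker lists of other cell types. The summed scaled signal of 12 neutrophil markers was 3.66 in Chlorella swimming muscle, 282 in swimming muscle and 16.9 in nonswimming muscle. That of 10 B cell markers was 1.77, 9.40 and 2.11 in the same order, and that of 10 genes of dividing cells was 1.47, 10.7 and 1.68. In bulk tissue, fewer cells of a type and less RNA per cell cannot be told apart.

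Among the 8 genes well above background on all 3 arrays, 3 arrangements of levels were seen. Myog, Mstn, Acvr2b and Pax7 were highest on the Chlorella swimming array and lowest on the nonswimming array, though swimming and nonswimming differed by less than the scanner error for Myog, Acvr2b and Pax7 and turned in order under other scalings given below. Mef2c, Myf6 and Fst were highest on the nonswimming array and lowest on the swimming array. For Fst, though, no difference was larger than the scanner error, and the order turned under another scaling given below. For Myf6, Chlorella swimming and nonswimming differed by less than the scanner error. Myod1 was high on the nonswimming array and at nearly 1 level on both swimming arrays. Read by its brightest oligonucleotide, no gene of the 8 differed by 2-fold in any comparison. The widest span over the 3 arrays was then 0.79 on the log2 scale, for Myog. The second, dim oligonucleotide of Mef2c did pass 2-fold, at 4.01-fold higher in swimming than in nonswimming muscle, and is given below.

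**Figure D1:**
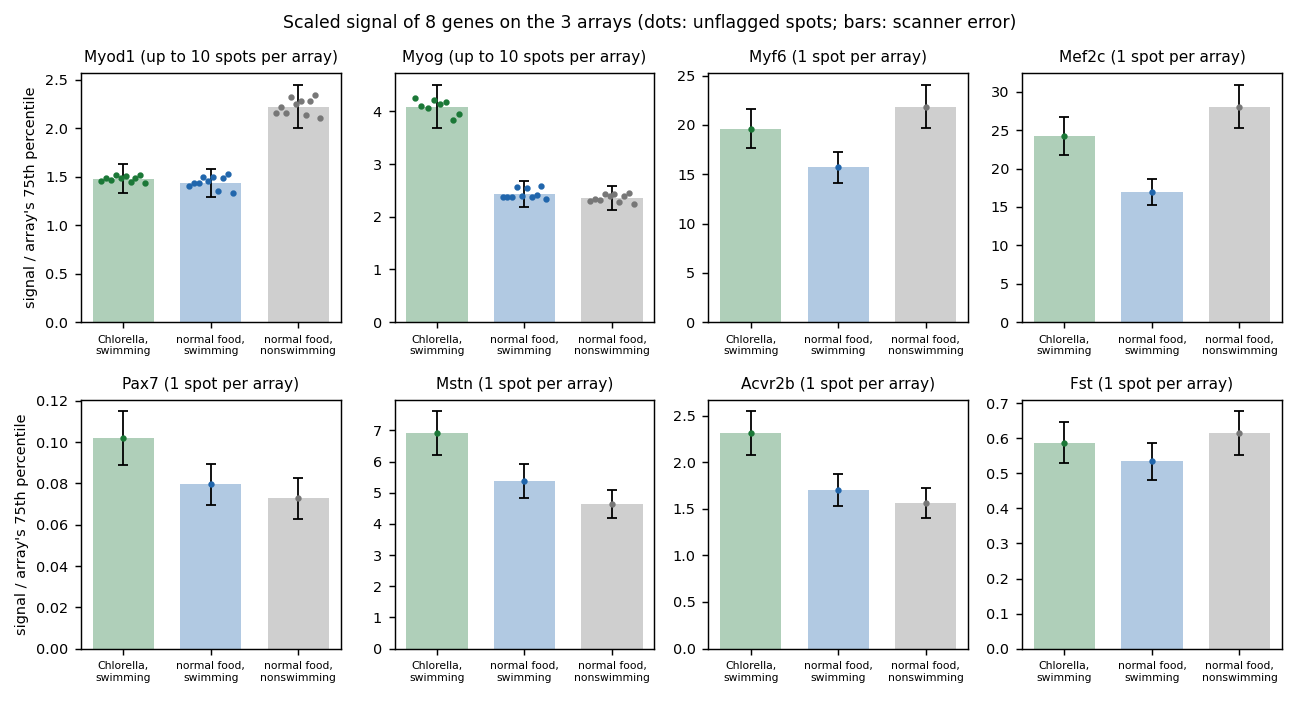
Scaled signal (multiples of the array's 75th percentile, linear axis from 0, a scale of its own for each gene) of 8 genes on the Chlorella swimming, swimming and nonswimming arrays; dots are unflagged spots, columns their level and error bars the scanner software's error of about 10%. The Chlorella swimming spots of Myog lie above all others, and the nonswimming spots of Myod1 lie above all others.

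MyoD, the factor that commits cells to the muscle lineage, was read by an oligonucleotide at chr7:42554787-42554846 in the files' own coordinates, for which no source used here names the build. The same holds for every oligonucleotide position below, and with no genome of that build the exon or untranslated region could not be assigned. Myod1 had a scaled signal of 1.48 in Chlorella swimming muscle, 1.44 in swimming muscle and 2.22 in nonswimming muscle. Its 10 spots ranged over 1.44 to 1.52 in Chlorella swimming muscle, 1.34 to 1.52 in swimming muscle and 2.10 to 2.34 in nonswimming muscle. The nonswimming spots thus lay above all spots of both swimming arrays, while the swimming arrays overlapped each other; spots share 1 RNA pool and are not replicates of a group. On the log2 scale, swimming minus nonswimming was -0.63 and Chlorella swimming minus nonswimming was -0.59, each ± 0.20 (scanner error). Chlorella swimming minus swimming was 0.04 ± 0.20, within the scanner error, and its sign turned under 3 of the 11 other ways of computing it. The ratio of swimming to nonswimming stood at percentile 3.84 of all genes measured on both arrays. A list of 8 keratinocyte markers was also high on the nonswimming array, with a summed scaled signal of 2.28 in Chlorella swimming muscle, 2.0 in swimming muscle and 8.04 in nonswimming muscle, and its part in the Myod1 values was not tested. Of these 8 markers, 5, 6 and 7 were well above background on the same arrays.

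Myogenin, which starts terminal differentiation and is also higher in denervated muscle, was read at chr1:134182082-134182141. Myog had a scaled signal of 4.09 in Chlorella swimming muscle, 2.43 in swimming muscle and 2.36 in nonswimming muscle. The 8 unflagged spots of the Chlorella swimming array ranged over 3.84 to 4.24, against 2.35 to 2.58 in 10 spots of the swimming array and 2.24 to 2.45 in 10 spots of the nonswimming array. The Chlorella swimming spots did not overlap the others, and those of the swimming and nonswimming arrays overlapped each other. The SD of the spots within an array was only 0.04 to 0.05 on the log2 scale. Spots of an array share 1 RNA pool, so this spread is not one between mice. The log2 ratio was 0.75 ± 0.20 for Chlorella swimming minus swimming and 0.79 ± 0.20 for Chlorella swimming minus nonswimming. These values stood at percentiles 97.0 and 96.4 of all genes measured. The median of the 13 muscle fibre markers was 0.29 and 0.20 in the same 2 comparisons, and its part in the Myog values was not tested. Scaled to those markers, Myog was 0.49 and 0.58. Swimming minus nonswimming was 0.05 ± 0.20, within the scanner error, and turned to -0.11 when arrays were centred on their medians.

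Myod1 and Myog followed different patterns over the arrays, and the difference of their log2 ratios does not depend on how an array as a whole is scaled. Myog minus Myod1 was 0.67 ± 0.29 for swimming minus nonswimming, 0.71 ± 0.29 for Chlorella swimming minus swimming and 1.38 ± 0.29 for Chlorella swimming minus nonswimming. The last value is a 2.60-fold difference in the ratio of the 2 signals. Ways that only rescale an array, filter dim probes or average over probes cannot change this value. Quantile normalization, cyclic loess, normexp background correction, keeping flagged spots and the authors' deposited table could, and gave 1.29 to 1.38.

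Myf5, which with MyoD specifies myoblasts, was not well above background in any spot of any array. Its oligonucleotide at chr10:106945401-106945460 was read in 8, 10 and 9 unflagged spots of the Chlorella swimming, swimming and nonswimming arrays. Their mean signal was 1.39, 1.35 and 1.55, under the lowest signal called well above background on the same arrays, which was 6.26, 5.78 and 6.45. No fold was computed for Myf5, and the arrays give only this upper bound.

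MRF4, the factor of the family that is most abundant in adult fibres, was read at chr10:106955664-106955723. Myf6 had a scaled signal of 19.6 in Chlorella swimming muscle, 15.7 in swimming muscle and 21.9 in nonswimming muscle. The swimming array was the low one. The log2 ratio was -0.48 ± 0.20 for swimming minus nonswimming, 0.32 ± 0.20 for Chlorella swimming minus swimming and -0.16 ± 0.20 for Chlorella swimming minus nonswimming. Scaled to the muscle fibre markers, the second of these was 0.06 and the third -0.37. The median log2 ratio of the 13 muscle fibre markers was -0.11, 0.29 and 0.20 for the same 3 comparisons.

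Pax7, the satellite cell factor, was read at chr4:139116890-139116949 and had a scaled signal of 0.102 in Chlorella swimming muscle, 0.080 in swimming muscle and 0.073 in nonswimming muscle. The log2 ratio was 0.36 ± 0.26 for Chlorella swimming minus swimming and 0.49 ± 0.27 for Chlorella swimming minus nonswimming. The 95% limits of both included 0, at -0.15 to 0.86 and -0.04 to 1.01. Swimming minus nonswimming was 0.13 ± 0.27, within the scanner error, and its sign turned under quantile normalization, median centring and normexp background correction. With normexp, Chlorella swimming minus nonswimming of Pax7 was 0.18. Scaled to the muscle fibre markers, it was 0.27, and Chlorella swimming minus swimming was 0.10.

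Mef2c is a MADS-box factor that cooperates with the myogenic factors in muscle and is also used by B cells, neurons and blood vessels. Its bright oligonucleotide at chr13:80738124-80738183 had a scaled signal of 24.2 in Chlorella swimming muscle, 17.0 in swimming muscle and 28.0 in nonswimming muscle. The swimming array was again the low one, as for Myf6. The log2 ratio was -0.72 ± 0.20 for swimming minus nonswimming, 0.51 ± 0.20 for Chlorella swimming minus swimming and -0.21 ± 0.20 for Chlorella swimming minus nonswimming. The first stood at percentile 2.53 of all genes, and the 95% limits of the third, -0.61 to 0.19, included 0. Scaled to the muscle fibre markers, the second was 0.25 and the third -0.42. In the authors' deposited table the row of this spot gave 0.65, 1.51 and 2.16 for the same 3 comparisons, with the opposite sign in the first and the last. The first was near the mean over both Mef2c oligonucleotides, 0.64, and the others were not, as given at the end.

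The second Mef2c oligonucleotide, at chr13:80652493-80652552 and named in the files from a retina cDNA clone, went the other way. Its scaled signal was 0.006 in Chlorella swimming muscle, where it was not well above background, 0.129 in swimming muscle and 0.032 in nonswimming muscle. Here the swimming array was the high one. The log2 ratio of swimming minus nonswimming was 2.0 ± 0.31, a 4.01-fold higher signal. Against the lowest signal well above background on the Chlorella swimming array, that array was at least 4.89-fold lower than the swimming array and at least 1.22-fold lower than the nonswimming array. The arrays on which this dim oligonucleotide was high and low are those on which the B cell, neutrophil and dividing cell lists were high and low. Of the 10 B cell markers, 4 were well above background in Chlorella swimming muscle, 10 in swimming muscle and 7 in nonswimming muscle. The part of any of these lists in the dim Mef2c signal was not tested. The values of Mef2c given elsewhere are those of the bright oligonucleotide.

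**Figure D2:**
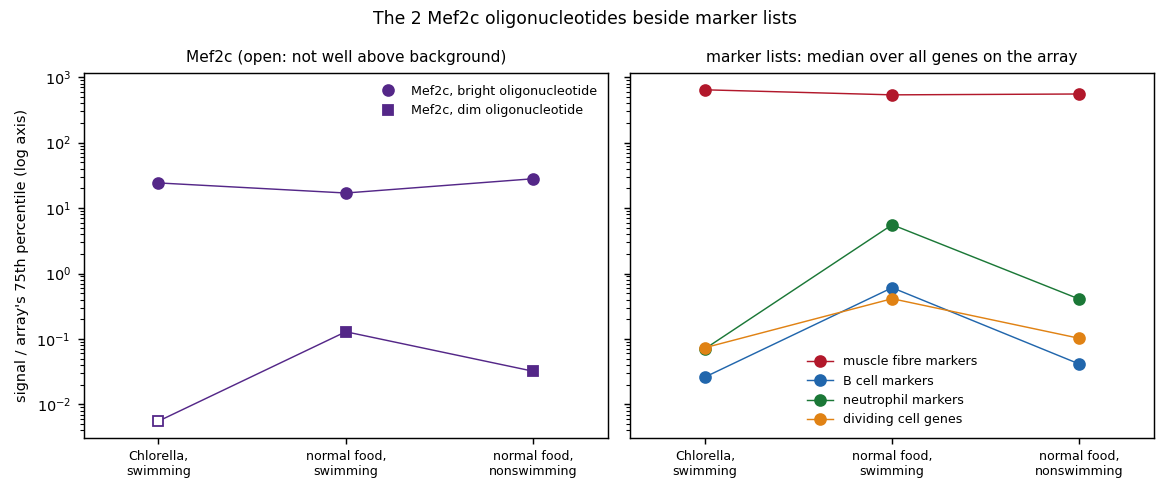
Scaled signal (log axis) of the bright and the dim Mef2c oligonucleotide (left; open symbol, not well above background) and the median scaled signal of 4 marker lists (right) on the Chlorella swimming, swimming and nonswimming arrays. The bright oligonucleotide was lowest on the swimming array (17.0) and the dim one highest there (0.129), as were the B cell, neutrophil and dividing cell lists.

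Myostatin was read at chr1:53301160-53301219. Mstn had a scaled signal of 6.92 in Chlorella swimming muscle, 5.37 in swimming muscle and 4.64 in nonswimming muscle. Its level was thus highest with Chlorella and lowest without swimming, with neighbouring arrays 0.36 ± 0.20 (Chlorella swimming minus swimming) and 0.21 ± 0.20 (swimming minus nonswimming) apart on the log2 scale. The 95% limits of both included 0, at -0.04 to 0.76 and -0.19 to 0.61. The second of these ratios was 0.06 under median centring. Chlorella swimming minus nonswimming was 0.58 ± 0.20, a 1.49-fold higher signal at percentile 93.2 of all genes. Scaled to the muscle fibre markers, Mstn was 0.11 for Chlorella swimming minus swimming and 0.36 for Chlorella swimming minus nonswimming.

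ActRIIB, the receptor to which myostatin binds first, was read at chr9:119108757-119110112. Acvr2b had a scaled signal of 2.32 in Chlorella swimming muscle, 1.71 in swimming muscle and 1.56 in nonswimming muscle. The order was that of its ligand. The log2 ratio was 0.44 ± 0.20 for Chlorella swimming minus swimming and 0.57 ± 0.20 for Chlorella swimming minus nonswimming. Swimming minus nonswimming was 0.13 ± 0.20, within the scanner error, and turned to -0.03 under median centring. Scaled to the fibre markers, Acvr2b was 0.18 for Chlorella swimming minus swimming and 0.35 for Chlorella swimming minus nonswimming. The log2 ratios of Mstn and Acvr2b differed by 0.09, -0.08 and 0.01 in the 3 comparisons, all within a scanner error of 0.29.

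Follistatin, the antagonist, was read at chr13:111626922-111627594. Fst had a scaled signal of 0.588 in Chlorella swimming muscle, 0.535 in swimming muscle and 0.616 in nonswimming muscle. The log2 ratios were small, with values of -0.20 for swimming minus nonswimming, 0.14 for Chlorella swimming minus swimming and -0.07 for Chlorella swimming minus nonswimming, none larger than the scanner error of 0.20. Scaled to the muscle fibre markers, Chlorella swimming minus swimming turned to -0.12 and Chlorella swimming minus nonswimming was -0.28, which is past the scanner error. Under median centring, swimming minus nonswimming was -0.36 and Chlorella swimming minus swimming was 0.27, both past it. The log2 ratio of Mstn minus that of Fst was 0.64 ± 0.29 for Chlorella swimming minus nonswimming, against 0.42 ± 0.29 for swimming minus nonswimming and 0.23 ± 0.29 for Chlorella swimming minus swimming.

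In swimming against nonswimming, 0 of the 8 genes measured on both arrays were 2-fold apart, where 5.14% of 15661 genes were higher by 2-fold or more and 1.07% lower. At 1.5-fold, 0 were higher and 2 were lower, Myod1 and Mef2c, against 9.35% higher and 4.4% lower among all genes. The median log2 ratio of the 8 genes was -0.08 and that of all genes was -0.04. In Chlorella swimming against swimming, 0 of 8 were 2-fold apart, where 1.37% of 15508 genes were higher and 4.86% lower. At 1.5-fold, 1 was higher, Myog, and 0 were lower, against 5.87% higher and 9.17% lower among all genes. The log2 ratios of the 8 genes were all above 0, as were 59.9% of those of all genes, and their median was 0.36, against 0.08 for all genes and 0.29 for the muscle fibre markers. All 13 fibre markers lay above 0 in this comparison as well, and their part in these ratios was not tested. When arrays were scaled to the fibre markers, a way chosen after seeing the data, the median of the 8 genes was 0.10, Myod1 turned to -0.22 and Fst to -0.12, and Myog remained at 0.49.

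**Figure D3:**
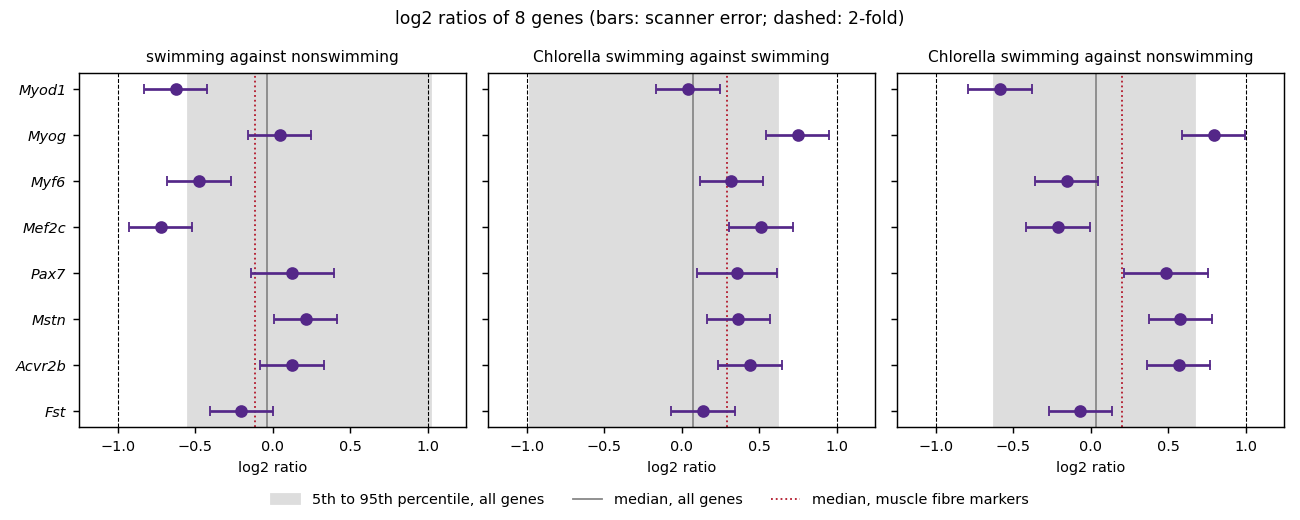
log2 ratios of 8 genes (points; error bars, scanner error) for swimming against nonswimming, Chlorella swimming against swimming and Chlorella swimming against nonswimming, with the 5th to 95th percentile range of all genes (grey), their median (solid line), the median of the muscle fibre markers (dotted) and 2-fold (dashed). Myod1 and Mef2c lie left of the grey range on the left, and Myog lies right of it in the middle and on the right.

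In Chlorella swimming against nonswimming, 0 of 8 were 2-fold apart, where 2.07% of 15336 genes were higher and 1.49% lower. At 1.5-fold, 1 was higher, Myog, and 1 was lower, Myod1, against 6.63% higher and 5.76% lower among all genes. The ratios lay above 0 for 4 of the 8 genes and below 0 for 4, and the median was 0.21 against 0.04 for all genes. The 3 comparisons share arrays, so that a level of 1 array enters 2 of them.

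The partners and antagonists of the myogenic factors, 28 genes of which 26 were measured in each comparison, had a median log2 ratio of -0.18 for swimming against nonswimming, 0.28 for Chlorella swimming against swimming and -0.04 for Chlorella swimming against nonswimming. The medians of all genes were -0.04, 0.08 and 0.04 in the same comparisons. Id2, which sequesters the E-protein partners of the myogenic factors, had a scaled signal of 0.896 in Chlorella swimming muscle, 1.88 in swimming muscle and 0.868 in nonswimming muscle. It was the only gene of this list past 2-fold on measured values, at 1.11 ± 0.20 for swimming minus nonswimming and -1.07 ± 0.20 for Chlorella swimming minus swimming. That is 1 of 26 in each, beside 5.14% of all genes higher and 1.07% lower in the first comparison. In the second, 1.37% of all genes were higher and 4.86% lower. The neutrophil, B cell and dividing cell lists given above were high on the same array as Id2, and their part in its values was not tested. Mdfi, an inhibitor that holds myogenic factors in the cytoplasm, was well above background only on the nonswimming array, and the swimming array was at least 2.39-fold lower.

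Of 23 satellite cell and myoblast genes, all were measured, with medians of -0.11, 0.25 and 0.14 in the same order of comparisons. Higher by 2-fold or more were 2, 1 and 1 of the 23, and lower 0, 2 and 0. The shares of all genes were 5.14%, 1.37% and 2.07% higher and 1.07%, 4.86% and 1.49% lower. Vcam1, an adhesion molecule, and Cxcr4, a chemokine receptor, are found on satellite cells and also on other cells, Cxcr4 on leukocytes among them. Both were high on the swimming array, at log2 ratios of 1.26 ± 0.20 (Vcam1) and 1.07 ± 0.23 (Cxcr4) for swimming minus nonswimming and -1.34 ± 0.20 (Vcam1) and -1.39 ± 0.24 (Cxcr4) for Chlorella swimming minus swimming. The neutrophil and B cell lists given above were high on the same array, and their part in these values was not tested. For 8 macrophage markers the summed scaled signal was 46.2 in Chlorella swimming, 118 in swimming and 84.1 in nonswimming muscle. Their median log2 ratio of swimming minus nonswimming was -0.11, with 3 above 0 and 5 below. Hes1, a transcriptional repressor downstream of Notch, was high in Chlorella swimming muscle instead, at a scaled signal of 2.17, against 0.781 in swimming and 0.880 in nonswimming muscle. Its log2 ratio was 1.47 ± 0.20 for Chlorella swimming minus swimming and 1.30 ± 0.20 for Chlorella swimming minus nonswimming.

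Of 24 differentiation genes known to be controlled by myogenic factors or MEF2, all were measured, with medians of -0.07, 0.32 and 0.27. In Chlorella swimming against swimming, 23 of the 24 lay above 0, beside 59.9% of all genes and all 13 muscle fibre markers, whose median was 0.29 and 2 of which, Ckm and Acta1, are in both lists. Of the 24, 1 was past 2-fold, beside 1.37% of all genes higher and 4.86% lower. That gene was Cdkn1a, the cell cycle inhibitor p21, with a scaled signal of 1.77 in Chlorella swimming muscle, 0.489 in swimming muscle and 0.532 in nonswimming muscle. Its log2 ratio was 1.86 ± 0.20 for Chlorella swimming minus swimming and 1.73 ± 0.20 for Chlorella swimming minus nonswimming. In Chlorella swimming against nonswimming, 4 of the 24 were higher by 2-fold or more and 0 lower, beside 2.07% and 1.49% of all genes. Besides Cdkn1a, they were Mybph, a myosin-binding protein, at 1.06 ± 0.20, and Tnni1, slow troponin I, at 1.01 ± 0.20. The last was Actc1, cardiac alpha-actin, at 1.0 ± 0.20. Mybph, Tnni1 and Actc1 all lay within the scanner error of the 2-fold line. In swimming against nonswimming, 1 of the 24 was higher by 2-fold or more and 1 lower, beside 5.14% and 1.07% of all genes. These were Tnni1, at 1.55 ± 0.20, and Mb, the oxygen store myoglobin, at -1.04 ± 0.20. Among 9 slow fibre markers, Tnni1 included, 6 were higher by 2-fold or more in swimming than in nonswimming muscle, beside 5.14% of all genes, with a median of 1.41, and their part in these values was not tested.

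**Figure D4:**
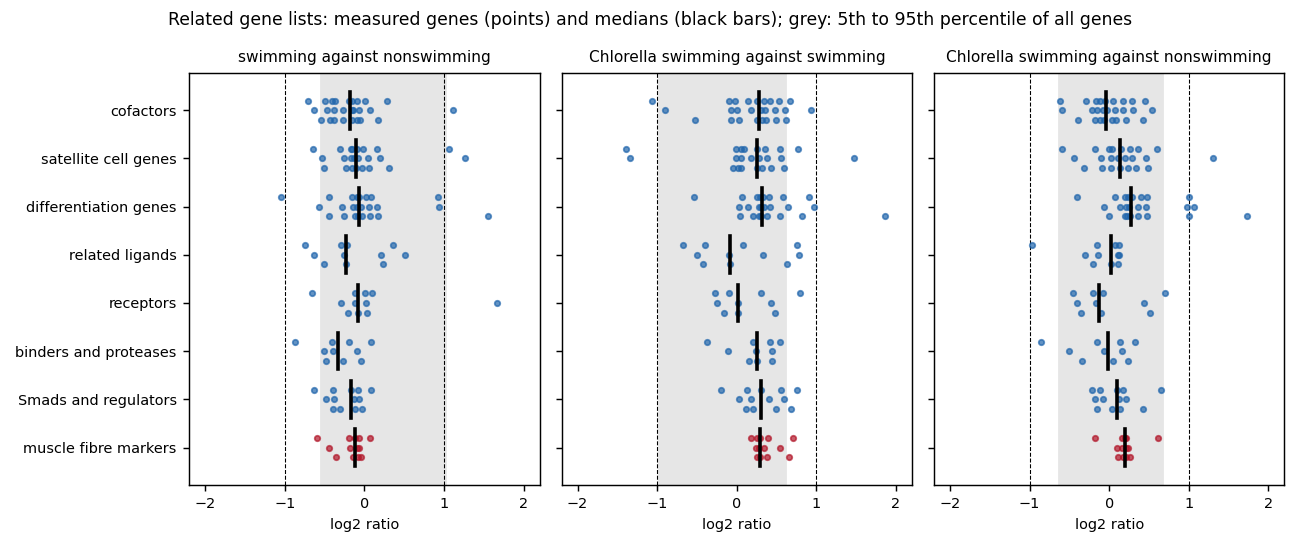
log2 ratios of the measured genes (points) and medians (black bars) of 7 related gene lists and of the 13 muscle fibre markers in the 3 comparisons; grey is the 5th to 95th percentile range of all genes and dashed lines are 2-fold. Most points of each list lie inside the grey range, and in the middle panel the fibre markers lie at or above 0.18.

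On the myostatin side, none of 11 related ligands was past 2-fold in any comparison, and their medians were -0.23, -0.09 and 0.02. The shares of all genes past 2-fold given above stand beside this count and those of the lists below. Of 11 receptors, 1 was past 2-fold, in swimming against nonswimming, beside 5.14% of all genes higher and 1.07% lower. That gene was Acvr1c (ALK7), a type I receptor best known from fat tissue, at 1.66 ± 0.35 for swimming minus nonswimming. It was not well above background on the Chlorella swimming array, which was at least 3.15-fold lower than the swimming array. The summed scaled signal of 9 adipocyte markers was 504 in Chlorella swimming muscle, 824 in swimming muscle and 400 in nonswimming muscle, and its part in the Acvr1c values was not tested. The 3 other receptors that carry the myostatin signal are named for that role, after their values were seen. Acvr1b (ALK4), a type I partner, had log2 ratios of -0.08, 0.79 and 0.71, each ± 0.20, for swimming against nonswimming, Chlorella swimming against swimming and Chlorella swimming against nonswimming. Acvr2a, the sister of ActRIIB, had -0.12 ± 0.22, -0.28 ± 0.22 and -0.40 ± 0.23, and Tgfbr1 (ALK5) had 0.02, -0.09 and -0.07, each ± 0.20. Acvr1b and Acvr2b thus lay above 0 on the Chlorella swimming array against both others, and Acvr2a below.

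Of 14 binding proteins, inhibitors and activating proteases of myostatin and its relatives, 10 were measured in each comparison, with medians of -0.33, 0.25 and -0.01. None was past 2-fold on measured values. Grem1, a secreted antagonist of BMPs, passed the background flag on the swimming array alone, which was at least 4.28-fold higher than the nonswimming array, and the Chlorella swimming array was at least 3.67-fold lower than the swimming array. The summed scaled signal of 7 bone and osteocyte markers was 2.34 in Chlorella swimming muscle, 17.5 in swimming muscle and 4.34 in nonswimming muscle, with 6, 7 and 5 of the 7 well above background, and its part in the Grem1 values was not tested. Of 14 Smads and their regulators, the transcription factors that carry these signals to the nucleus, 13 were measured and none was past 2-fold. Their medians were -0.17, 0.30 and 0.10, and 12 of the 13 lay below 0 in swimming against nonswimming and above 0 in Chlorella swimming against swimming. Beside them, 44.9% and 59.9% of all genes lay above 0 in these comparisons, and 1 and 13 of the 13 muscle fibre markers. Smad3 and Smad2, the mediators of myostatin, are named for that role. For Chlorella swimming minus swimming, Smad3 was 0.49 ± 0.20 and Smad2 was -0.20 ± 0.20.

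The genes whose pattern over the 3 arrays was most like that of Myog, which had the widest span of the 8 genes, were Zyg11b, Mfap4 and Sbp. Likeness was the Euclidean distance between log2 values centred on each gene's mean, and was 0.018 for Zyg11b, 0.024 for Mfap4 and 0.033 for Sbp among 13320 genes with a symbol. With 3 arrays this measure is a description only.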

How the data were processed

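RNA of 10 mice per group was pooled and hybridised to 1 array per group, and all 3 arrays lay on 1 slide per the file headers. The deposited scanner files hold intensity values (processed signal, its error, and spot and background brightness) for which the submitters' processing notes name Agilent Feature Extraction 9.5; per the file headers the processed signal is background-subtracted and detrended within the array. The deposited flags (other values) mark control, outlier, saturated and well-above-background spots. The authors' deposited value table holds log2 values; its centring per probe is unknown, its column medians were 0.01, -0.01 and 0.01 (Chlorella swimming, swimming, nonswimming), and differences between columns lay within 0.01 of those of the scanner signals plus a constant for 55.8% to 56.6% of 13683 spots.

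Here control and outlier spots were left out, log2 processed signals were averaged over spots of an oligonucleotide, and each array's 75th percentile was subtracted. A gene is its brightest oligonucleotide. A ratio is the difference of 2 arrays, both well above background; its error joins the scanner errors (1 SD). "At least" folds set the brighter array against the lowest signal well above background on the dimmer one. With 1 array per group nothing was tested, and the number of arrays limits the precision. Names were taken by accession for 22948 oligonucleotides, by symbol for 6658 and by older symbol for 3109, and 8454 kept the file's name. The 9 genes and all lists were chosen with earlier results of these data known. Of each related list, at most 4 genes per comparison past 2-fold are named. The scaling and counting were tested on simulated data. R 4.3.3, limma 3.58.1 (normexp, quantile, cyclic loess) and Python 3.11.15 were used.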

Additional observations from a re-analysis of the deposited data

How the results depend on the processing

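The ratios of the measured genes among the 9, their median and the all-gene counts were recomputed in 11 other ways, 10 for Pax7, which did not pass the stricter filter on dim probes; the counts of the 9 genes past 2-fold were recomputed in 13. The related lists and the genes named from them were not recomputed. Scaling to the 13 muscle fibre markers was chosen after seeing the data. The count of genes 2-fold apart was 0 in all 3 comparisons under every normalization, background correction and filter run. It was 1 in Chlorella swimming against swimming and 1 in Chlorella swimming against nonswimming with the mean over probes and with the authors' deposited table, each time Mef2c; the mean rests on the dim oligonucleotide, which was not well above background on the Chlorella swimming array, and is no measured 2-fold difference. At 1.5-fold it was 2 in swimming against nonswimming, 1 in Chlorella swimming against swimming and 2 in Chlorella swimming against nonswimming. As the mean of its bright and dim oligonucleotides, Mef2c was 0.64 for swimming minus nonswimming. That mean was -2.01 for Chlorella swimming minus swimming and -1.37 for Chlorella swimming minus nonswimming. In the authors' deposited table Mef2c was 0.65, 1.51 and 2.16 in the same order of comparisons, so the last 2 had the opposite sign to the mean. The Mef2c values of that table do not follow the bright spot. The first was near the mean over both oligonucleotides and the last 2 were not, and the cause was not tested. The median in Chlorella swimming against nonswimming was -0.067 over the 7 genes, without Pax7, that passed a stricter filter on dim probes; over the 8 genes it was 0.51 in the authors' deposited table and -0.00375 when scaled to fibre markers; in Chlorella swimming against swimming it was 0.10 with that last scaling. Scaled that way, Chlorella swimming minus swimming was 0.18 for Acvr2b, 0.11 for Mstn and 0.06 for Myf6. The median of the 8 genes in swimming against nonswimming ranged from -0.23 to 0.09. With median centring, the all-gene median became -0.19 (swimming minus nonswimming) and 0.21 (Chlorella swimming minus swimming), and scaling to fibre markers moved it to -0.18 in both Chlorella comparisons. Over all genes, those 2-fold higher ranged from 386 to 2104 (main 805), 51 to 1233 (212) and 92 to 1394 (318) in the 3 comparisons, and those 2-fold lower from 42 to 1255 (167), 301 to 1998 (754) and 57 to 1266 (228); the highest counts came without a filter on dim probes and the lowest with normexp. The higher share was 82.8% (62.6% to 90.2%), 21.9% (8.86% to 38.2%) and 58.2% (30.4% to 65.7%). No paired analysis was possible because each group has 1 array and the labels carry no replicate numbers, and no array could be left out. Signal over background limits Myf5 and the dim Mef2c oligonucleotide.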
